A study of Mus musculus with 49 samples.

Results

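Budding organoids of dedifferentiated hepatocytes carrying a Cdx2 retrovirus (dediHep-BOs) were set against spherical organoids of fetal intestinal progenitor cells (FIPC-SOs), with 3 and 3 libraries, or 6 of the 49 libraries of the series. All genes in the table entered except 7 adult Cdx2 targets (Alpi, Fabp1, Fabp2, Lct, Sis, Mep1b and Mttp), which left 46071 of 46078 identifiers. The study followed mouse hepatocytes that lost their identity in culture, and asked which epithelia these cells, termed dediHeps, could form. All groups used here were wild type C57BL/6J cells. The dediHeps came from hepatocytes of 10-week-old mice. For dediHep-BOs they were infected with a retrovirus expressing Cdx2 together with GFP, embedded in Matrigel with EGF, Noggin and R-spondin1 plus Wnt3a and the GSK3 inhibitor CHIR99021, and then passaged without Wnt3a and CHIR99021. FIPC-SOs were grown in Matrigel from intestinal cells of E13.5 embryos in the medium with Wnt3a and CHIR99021 and carried no transgene. Another 2 groups were used to place the results: budding organoids from crypts of the small intestine of 10-week-old mice, grown without Wnt3a and CHIR99021 (ISC-BOs, 4 libraries), and spherical organoids of dediHeps that were not given Cdx2 (dediHep-SOs, 3 libraries). In the main comparison the cell of origin, its age, the Cdx2 virus, the medium and the form of the organoid changed together and cannot be told apart. The labels do not say whether the libraries of a group came from separate cultures or animals. The sex-linked counts given below differed within FIPC-SOs and within ISC-BOs, so the libraries of these groups did not all come from a single animal. The tests measure the spread between these samples, part of which may be technical.

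The intestinal epithelium is renewed from stem cells at the crypt base under Wnt signals, and their progeny become absorptive enterocytes or secretory goblet, Paneth, enteroendocrine and tuft cells. In organoid culture, adult stem cells form buds that hold stem and Paneth cells beside a villus-like wall, whereas progenitors of the fetal gut grow as hollow spheres with few mature cells. Cdx2, a homeobox factor, keeps intestinal identity, and hepatocytes and enterocytes share much of their machinery for lipid, drug and bile acid handling.

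The assay, CEL-seq2, sequences 3′ ends and tags each molecule with a random sequence (UMI), which is what is counted. Library totals ran from 1856644 to 2089931 counts in dediHep-BOs and from 2251588 to 2477523 in FIPC-SOs. CPM are counts scaled to the library total, which for single genes was adjusted by a scaling factor of edgeR (TMM). On that adjusted scale 3 counts in a library stood for 1.09 to 1.64 CPM. Spearman correlations between replicates were 0.939 to 0.960 and 0.936 to 0.953, and the counts of every pair differed by more than sampling noise (chi-square per degree of freedom 5.81 to 18.9). Some libraries stood apart from their group. The dediHep-BO 1 and 2 libraries held 0 and 0 counts of 4 Y-linked genes against 622 in dediHep-BO 3, with 21, 1 and 0 counts of Xist, although the methods name male mice as the hepatocyte source. FIPC-SO 1 and 2 held 1106 and 1250 counts of Xist and no Y-linked count, and FIPC-SO 3 held 1107 Y-linked counts and 1 of Xist. ISC-BO 1 and 2 held 579 and 511 counts of Xist and no Y-linked count, although the methods name male mice for the crypts as well. ISC-BO 3 and 4 held 672 and 537 Y-linked counts. The dediHep-SO libraries held no Xist, and dediHep-SO 3 held 1 Y-linked count against 623 and 415. The chi-square per degree of freedom of dediHep-SO 3 with the other dediHep-SO libraries was 29.1 and 19.3, against 7.26 between those. Xist itself was called lower in dediHep-BOs although the groups overlapped (log2 fold change -6.42, SE 1.62, FDR 0.0214, -10.14 without dediHep-BO 1 and -5.81 without dediHep-BO 3 and -7.02 without FIPC-SO 3), and the call was lost when all 49 libraries were fitted together. Collagens of mesenchymal cells were likewise uneven within dediHep-BOs and within FIPC-SOs and are given below.

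A gene is termed called where it passed the cutoffs that the study used, a Benjamini-Hochberg adjusted p (FDR) below 0.1 in edgeR's quasi-likelihood test and a log2 fold change larger than 2 in either direction. CPM values of single genes are scaled with TMM factors over the 13 organoid libraries, and fold changes are dediHep-BO over FIPC-SO. Of 11547 genes tested, 694 were called (6.01%), 402 higher (3.48%) and 292 lower (2.53%) in dediHep-BOs. These shares of all genes are the background for each count of called list members below, also where they are not repeated. Without the adult Cdx2 targets this left 397 genes higher and 292 lower of 11541 tested, and the other 34530 identifiers had too few counts to test. By the FDR alone 2802 passed. The median log2 fold change over all genes tested was -0.03. In 392 of the 397 higher genes and 290 of the 292 lower genes no library of one group reached the other group, and this was also so for 3666 of 10852 genes that were not called. The higher genes were the more abundant: 109 of them averaged over 100 CPM in dediHep-BOs, while 32 of the lower genes averaged over 100 CPM in FIPC-SOs. Leaving out 1 library gave 709 to 978 called genes, the most without dediHep-BO 3. With 1 library left out a gene needs counts in fewer libraries to be tested. The genes behind such counts, here and for the lists below, therefore differ.

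**Figure D1:**
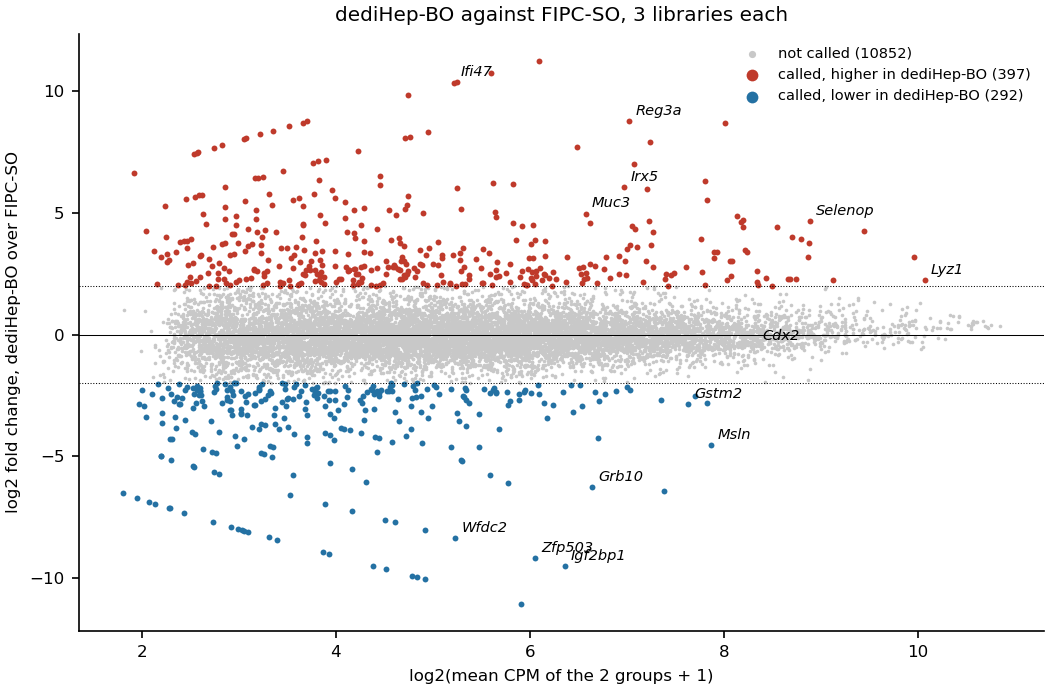
Each point is a gene, with its level on the horizontal axis (log2 of the mean CPM of both groups plus 1) and its log2 fold change, dediHep-BO over FIPC-SO, on the vertical axis. Red points are the 397 genes called higher, blue points the 292 called lower, and dotted lines mark the fold threshold. Cdx2 lies among the grey points near 0, and the bands of points at the far top and bottom left are genes with no or few counts in one group, whose fold is not fixed by the counts.

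Cdx2 was not called, although dediHep-BOs carried it as a transgene and FIPC-SOs did not. The libraries counted 194, 229 and 389 CPM in dediHep-BO and 455, 312 and 349 CPM in FIPC-SO (log2 fold change -0.47, SE 0.28, FDR 0.285). The ranges overlapped, with dediHep-BO 3 at the level of FIPC-SOs and the other dediHep-BO libraries below. ISC-BOs had 373 ± 26.3 CPM (SD, n = 4) and dediHep-SOs 96.8 ± 20.2 CPM (SD, n = 3). Cdx2 lies at chromosome 5, 147300805 to 147307270, minus strand (GRCm38, GENCODE M21), and whether its 3′ counts hold transcripts of the virus was not tested. Vil1 and Epcam, general markers of gut epithelium, were present in every library and not called, whereas the marker Krt20 was called higher and is given below. Vil1, an actin bundler of the brush border, counted 375, 391 and 368 CPM in dediHep-BO and 417, 209 and 236 CPM in FIPC-SO (log2 fold change 0.39, SE 0.27, FDR 0.352). Epcam, an adhesion molecule of epithelia, counted 608, 774 and 550.1 CPM in dediHep-BO and 466, 487 and 525 CPM in FIPC-SO (log2 fold change 0.38, SE 0.19, FDR 0.2). The labels give liver and hepatocyte for the dediHep-BOs, yet Alb, the main secreted protein of hepatocytes, had 0, 0 and 0 counts in dediHep-BO and 0, 0 and 0 in FIPC-SO. Vim, a filament protein of mesenchymal and dedifferentiated cells, counted 2.74, 5.41 and 6.599 CPM in dediHep-BO and 1.31, 0 and 19.6 CPM in FIPC-SO (log2 fold change -0.52, SE 1.02, FDR 0.763).

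Many genes of absorptive enterocytes were called higher in dediHep-BOs. In the list of brush border and transport genes 13 of 26 tested members were called higher and 0 lower (median log2 fold change 1.94), in lipid and retinoid handling 10 of 16 and 0 (median 2.25), and in xenobiotic metabolism 17 of 24 and 0 (median 3.37), where 3.48% of all genes were called higher. Slc5a1, the sodium-glucose transporter of the brush border, counted 300.5, 249 and 230.0 CPM in dediHep-BO and 24.4, 39.6 and 32.2 CPM in FIPC-SO (log2 fold change 3.01, SE 0.27, FDR 5.45e-05). The fructose and glucose transporter Slc2a2 counted 101, 42.8 and 74.9 CPM in dediHep-BO and 0.870, 2.40 and 0 CPM in FIPC-SO (log2 fold change 6.02, SE 0.63, FDR 0.00013). Every dediHep-BO library was above every FIPC-SO library for both, and in FIPC-SOs Slc2a2 was close to the floor of counting. Further transporters and peptidases called higher were Slc3a1 and Slc7a9, which form a carrier of basic amino acids, the peptide carrier Slc15a1, the neutral amino acid carrier Slc6a19, the peptidases Dpp4, Enpep and Mep1a, Ggt1, the anion exchanger Slc26a3, and Krt20. The last, a keratin of differentiated villus cells, counted 578, 357 and 350.2 CPM in dediHep-BO and 43.5, 22.4 and 79.3 CPM in FIPC-SO (log2 fold change 3.14, SE 0.42, FDR 0.000578). Pls1, which is also part of the brush border, was not called at 553, 413 and 447 CPM in dediHep-BO and 216, 247 and 271 CPM in FIPC-SO (log2 fold change 0.94, SE 0.21, FDR 0.0106).

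In lipid handling, Creb3l3, a transcription factor that drives lipid genes in liver and gut, counted 334, 266 and 257 CPM in dediHep-BO and 7.83, 16.4 and 9.42 CPM in FIPC-SO (log2 fold change 4.66, SE 0.33, FDR 1.88e-05). Apoa4, an apolipoprotein of chylomicrons, counted 1175, 454 and 514 CPM in dediHep-BO and 52.6, 33.2 and 14.5 CPM in FIPC-SO (log2 fold change 4.41, SE 0.51, FDR 0.000236). Apoc3, which slows the breakdown of lipoproteins, counted 168, 78.2 and 107 CPM in dediHep-BO and 13.49, 8.39 and 4.71 CPM in FIPC-SO (log2 fold change 3.73, SE 0.44, FDR 0.000274). Neither gene's groups overlapped, and dediHep-BO 1 had the highest level of both. Npc1l1, the cholesterol uptake protein, reached 65.1, 69.8 and 68.3 CPM in dediHep-BO and 6.96, 9.99 and 6.88 CPM in FIPC-SO (log2 fold change 3.08, SE 0.29, FDR 7.52e-05). Apob, Apoa1, Apoc2, Rbp2, a retinol carrier, and both subunits of the sterol exporter, Abcg5 and Abcg8, were also called higher. Scd1 and Acsl5, enzymes of fatty acid desaturation and activation, had log2 fold changes of 0.97 (FDR 0.0382) and 0.74 (FDR 0.0504) and were not called.

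Drug-metabolising enzymes had the highest median of the 3 enterocyte lists. Cyp3a13, a cytochrome P450, counted 504, 379.7 and 336 CPM in dediHep-BO and 29.6, 23.6 and 27.2 CPM in FIPC-SO (log2 fold change 3.92, SE 0.27, FDR 1.88e-05). The carboxylesterase Ces2c counted 471, 467 and 391 CPM in dediHep-BO and 37.8, 38.0 and 50.7 CPM in FIPC-SO (log2 fold change 3.39, SE 0.24, FDR 1.88e-05). The pseudogene Ces2d-ps, which shares sequence with it so that their counts may be split, had 639, 527 and 474 CPM in dediHep-BO and 40.02, 44.4 and 61.6 CPM in FIPC-SO (log2 fold change 3.48, SE 0.25, FDR 1.88e-05). The dediHep-BO libraries were close to each other in all of these and far from FIPC-SOs. Fmo5, a monooxygenase, counted 111, 126 and 105 CPM in dediHep-BO and 3.48, 5.596 and 6.16 CPM in FIPC-SO (log2 fold change 4.46, SE 0.33, FDR 1.88e-05). Cyp4f14, another cytochrome P450, counted 686, 289.7 and 347 CPM in dediHep-BO and 8.70, 5.20 and 2.54 CPM in FIPC-SO (log2 fold change 6.33, SE 0.49, FDR 2.55e-05). The sulfotransferase Sult1d1 counted 134, 109.7 and 77.3 CPM in dediHep-BO and 3.92, 5.20 and 3.98 CPM in FIPC-SO (log2 fold change 4.59, SE 0.35, FDR 2.42e-05). No group overlapped in these genes either. Among the abundant genes, Adh1, an alcohol dehydrogenase, counted 1601, 1145 and 1219 CPM in dediHep-BO and 36.5, 139 and 32.6 CPM in FIPC-SO (log2 fold change 4.25, SE 0.50, FDR 0.000304), with FIPC-SO 2 well above the other FIPC-SO libraries, and the log2 fold change was 5.24 without FIPC-SO 2 and 4.91 with a correction for UMI collisions (molecules of a gene that carry the same UMI and are counted as 1). Ces2e and Ugt2b34 were high in both groups and not called, with log2 fold changes of 1.30 (FDR 0.00299) and 1.03 (FDR 0.00307).

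Several further genes with the smallest p were also of absorptive or mucosal cells. Tkfc, a kinase of fructose metabolism, counted 618, 497 and 532 CPM in dediHep-BO and 40.9, 68.4 and 47.4 CPM in FIPC-SO (log2 fold change 3.39, SE 0.26, FDR 2.42e-05). Muc3, a mucin of the enterocyte membrane, counted 209.6, 129.8 and 209.8 CPM in dediHep-BO and 3.92, 6.00 and 7.24 CPM in FIPC-SO (log2 fold change 4.97, SE 0.36, FDR 1.88e-05). In both genes the groups were far apart. Aoc1, the oxidase that breaks down histamine, counted 385, 276 and 216 CPM in dediHep-BO and 12.6, 17.2 and 16.7 CPM in FIPC-SO (log2 fold change 4.23, SE 0.31, FDR 1.88e-05). Pigr, which carries IgA across the epithelium, counted 481, 664 and 485 CPM in dediHep-BO and 27.4, 12.4 and 16.3 CPM in FIPC-SO (log2 fold change 4.86, SE 0.34, FDR 1.88e-05). Selenop, a selenium carrier that liver secretes in quantity, counted 1159, 845 and 721 CPM in dediHep-BO and 25.2, 36.0 and 46.0 CPM in FIPC-SO (log2 fold change 4.66, SE 0.29, FDR 1.88e-05). Each of these 3 was also far above FIPC-SOs in every dediHep-BO library, and Selenop averaged 292 CPM in ISC-BOs and 381 CPM in dediHep-SOs. Clca4b, of a family of regulators of chloride channels, had a log2 fold change of 3.77 (FDR 4.71e-05) and Slco2b1, an organic anion carrier, 6.16 (FDR 5.26e-05). The log2 fold change of Slc2a2 was 7.31 without FIPC-SO 2 and 5.38 without FIPC-SO 3, and that of Slco2b1 was 7.26 without FIPC-SO 3.

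Genes of the secretory lineages gave mixed results. Of goblet cell genes 5 of 16 were called higher, where 3.48% of all genes were (median 1.09). Muc2, the gel-forming mucin, counted 347, 281 and 254 CPM in dediHep-BO and 74.8, 19.2 and 68.5 CPM in FIPC-SO (log2 fold change 2.43, SE 0.42, FDR 0.00289). Zg16, a lectin of the mucus layer, counted 362, 252 and 255 CPM in dediHep-BO and 6.53, 1.20 and 5.79 CPM in FIPC-SO (log2 fold change 5.99, SE 0.46, FDR 2.42e-05). The guanylin genes Guca2a and Guca2b and the kallikrein Klk1 were the others, and the groups did not overlap for Muc2 and Zg16. Klk1 had a log2 fold change of 4.22 (5.26 without FIPC-SO 1). Muc13 and Spink4 were not called at 1.22 (FDR 0.00294) and 1.25 (FDR 0.0305).

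Of Paneth and antimicrobial genes 8 of 21 were called higher and 2 lower (median 0.71), where 3.48% and 2.53% of all genes were. The lower count was 1 without dediHep-BO 3 and 4 without dediHep-BO 1. Lyz1, the lysozyme of Paneth cells, counted 2047, 1839 and 1440.5 CPM in dediHep-BO and 417, 341 and 365 CPM in FIPC-SO (log2 fold change 2.24, SE 0.19, FDR 4.56e-05). With 3740, 3738 and 3056 counts in dediHep-BO its level there was close to the ceiling of 4095 counts that the UMIs allow, and the correction for UMI collisions gave a log2 fold change of 3.36. The near copy Lyz2 counted 1152, 774 and 433 CPM in dediHep-BO and 31.3, 52.4 and 60.5 CPM in FIPC-SO (log2 fold change 4.03, SE 0.38, FDR 7.49e-05), and reads may be split between them. Both were higher in every dediHep-BO library. Ang4, an antimicrobial ribonuclease, counted 493, 509 and 304 CPM in dediHep-BO and 35.2, 27.6 and 61.2 CPM in FIPC-SO (log2 fold change 3.39, SE 0.34, FDR 0.000111). The lectin Reg3a counted 441, 230.2 and 104 CPM in dediHep-BO and 0.870, 0 and 0.724 CPM in FIPC-SO (log2 fold change 8.78, SE 0.75, FDR 4.21e-05, 8.14 without dediHep-BO 1). Reg3g, Pla2g2a, Wnt3, a ligand that Paneth cells give to stem cells, and Habp2 were higher as well. Reg3b was called higher, yet its groups overlapped, with 1478, 1009 and 48.1 CPM in dediHep-BO and 113, 58.4 and 101 CPM in FIPC-SO (log2 fold change 3.21, SE 0.83, FDR 0.0244), and it was not called without dediHep-BO 1 (2.52). Mptx2, a pentraxin of Paneth cells, went the other way, at 21.9, 8.36 and 0.471 CPM in dediHep-BO and 74.8, 68.0 and 69.9 CPM in FIPC-SO (log2 fold change -2.82, SE 0.66, FDR 0.0144, -4.02 without dediHep-BO 1). Nupr1, a stress response gene, counted 13.1, 28.5 and 7.07 CPM in dediHep-BO and 97.0, 38.4 and 111 CPM in FIPC-SO (log2 fold change -2.34, SE 0.52, FDR 0.011, -3.03 without dediHep-BO 2) and was not called without dediHep-BO 3. The defensin genes in the list were not called, with log2 fold changes of -1.67 for Defa22 to -0.33 for Defa17, although the family is so alike that counts of single members are uncertain. Without dediHep-BO 1, Defa22 was called lower (-2.01).

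Of enteroendocrine genes, the granule protein Chga was called higher and the hormone genes Gcg and Sst were called lower. Chga, a granule protein of most of these cells, counted 190.5, 229 and 45.7 CPM in dediHep-BO and 39.6, 11.99 and 31.5 CPM in FIPC-SO (log2 fold change 2.47, SE 0.57, FDR 0.0138), with dediHep-BO 3 near the FIPC-SO libraries. Gcg, which encodes glucagon-like peptides, counted 4.93, 0.984 and 0.471 CPM in dediHep-BO and 34.4, 13.6 and 55.1 CPM in FIPC-SO (log2 fold change -4.04, SE 0.71, FDR 0.00301, -5.49 without dediHep-BO 1). Sst, somatostatin, counted 0.547, 0.984 and 2.36 CPM in dediHep-BO and 12.6, 9.19 and 13.4 CPM in FIPC-SO (log2 fold change -3.10, SE 0.53, FDR 0.00272, -3.84 without dediHep-BO 3). Chgb and Cck were not called (1.08, FDR 0.106 and -1.60, FDR 0.108), though Cck was called lower without FIPC-SO 2 (-2.01). In all, 1 of 9 tested members was called higher and 2 lower (median -0.41), which became 2 without dediHep-BO 3 for higher and 7 without FIPC-SO 2 for lower. Of the 9 members 6 had a negative fold change, and more genes can be tested when a library is left out. The 7 were thus not counted over the same genes. The summed level of the list was 538, 611 and 159 CPM in dediHep-BO and 397, 217 and 472 CPM in FIPC-SO, so that the libraries of dediHep-BO differed more among themselves than the group means did. No tuft cell gene had enough counts to test. Their summed level was 15.8 to 30.1 CPM in dediHep-BOs and 2.66 to 9.28 CPM in FIPC-SOs. Dclk1, their defining kinase, had 14, 28 and 5 counts in dediHep-BO and 1, 0 and 10 in FIPC-SO. In bulk libraries fewer cells of a type and less RNA per cell cannot be told apart.

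The stem cell and Wnt target genes that were called were all higher in dediHep-BOs, which were grown without added Wnt3a and CHIR99021. Of 20 tested members, 4 were called higher and 0 lower, where 3.48% of all genes were called higher. A positive fold change was seen in 18 members (median 1.03). Lgr5, the R-spondin receptor that marks crypt stem cells, counted 259, 285 and 171 CPM in dediHep-BO and 164, 116 and 132 CPM in FIPC-SO (log2 fold change 0.79, SE 0.26, FDR 0.0635) and was not called. Ephb3, a receptor that positions cells in the crypt, counted 298, 320.2 and 215 CPM in dediHep-BO and 67.9, 48.0 and 55.8 CPM in FIPC-SO (log2 fold change 2.27, SE 0.26, FDR 0.000253). Nkd1, a feedback inhibitor of Wnt signalling, counted 21.9, 19.2 and 25.9 CPM in dediHep-BO and 1.31, 0.799 and 0.724 CPM in FIPC-SO (log2 fold change 4.50, SE 0.45, FDR 9.69e-05). For both genes the groups were apart, and ISC-BOs had 1.86 ± 1.31 CPM of Nkd1 (SD, n = 4), close to FIPC-SOs. The water channel Aqp4 and the BMP co-receptor Rgmb were the other called genes (2.34, FDR 0.000519 and 3.04, FDR 0.000899). Ascl2, Smoc2 and Axin2 had log2 fold changes of 1.47 (FDR 0.00974), 1.73 (FDR 0.00441) and 1.43 (FDR 0.0232), under the fold threshold (Smoc2 had 2.15 without FIPC-SO 2), and Cd44 and Slc12a2 had 0.32 (FDR 0.258) and -0.02 (FDR 0.942). Olfm4, a stem cell marker of the ileum in particular, had 1, 3 and 0 counts in dediHep-BO and 0, 1 and 0 in FIPC-SO.

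What was higher in FIPC-SOs included fetal and growth genes. Of 11 tested members in the oncofetal and imprinted list, 6 were called lower in dediHep-BOs and 0 higher (median -2.73), where 2.53% of all genes were called lower. Igf2bp1, an RNA-binding protein of fetal tissues, counted 0, 0.492 and 0 CPM in dediHep-BO and 230.1, 132 and 124 CPM in FIPC-SO (FDR 1.88e-05), which is 1 count in all in dediHep-BOs and a ratio of FIPC-SO to dediHep-BO of 952 (95% counting interval 170.5 to 37620.2). Plagl1, an imprinted zinc finger factor, also had 1 count in all in dediHep-BOs, with 0.547, 0 and 0 CPM in dediHep-BO and 40.9, 26.8 and 33.7 CPM in FIPC-SO (FDR 5.45e-05) and a ratio of 201 (95% counting interval 35.7 to 7967). Grb10, an imprinted adaptor that restrains growth, counted 2.19, 0.984 and 4.24 CPM in dediHep-BO and 239, 188 and 157 CPM in FIPC-SO (log2 fold change -6.26, SE 0.44, FDR 1.88e-05, -6.93 without dediHep-BO 3). The groups of all 3 genes were far apart. The imprinted RNA H19 counted 0, 0 and 0.471 CPM in dediHep-BO and 52.6, 12.4 and 64.8 CPM in FIPC-SO, and the imprinted zinc finger gene Peg3 1.09, 1.97 and 4.71 CPM in dediHep-BO and 62.2, 29.2 and 53.6 CPM in FIPC-SO. The RNA-binding protein Igf2bp3 completed the called members, and missed the FDR without dediHep-BO 2. Hmga2 and Igf2bp2 were in the same direction without being called (-1.41, FDR 0.014 and -1.59, FDR 0.00311).

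In the list of genes of fetal and regenerating gut epithelium, 5 of 20 were called lower, where 2.53% of all genes were, and 0 higher. A negative fold change was seen in 16 members (median -1.05). The lower count was 8 without dediHep-BO 2. Msln, mesothelin, counted 10.4, 36.9 and 9.90 CPM in dediHep-BO and 369, 484 and 484 CPM in FIPC-SO (log2 fold change -4.54, SE 0.47, FDR 0.000119, -5.46 without dediHep-BO 2). Ly6a, or Sca-1, counted 56.9, 94.4 and 33.9 CPM in dediHep-BO and 458, 163 and 437 CPM in FIPC-SO (log2 fold change -2.52, SE 0.45, FDR 0.00321) and missed the FDR when all 49 libraries were fitted together. The gap junction gene Gja1 and the EGF receptor ligand Ereg were near the floor in dediHep-BOs and called lower. Gja1 had 0, 0.492 and 0.943 CPM in dediHep-BO and 13.49, 16.4 and 23.5 CPM in FIPC-SO, and Ereg had 0, 0 and 1.41 CPM in dediHep-BO and 15.7, 14.8 and 19.6 CPM in FIPC-SO. In both the groups were apart. Several members did not pass: Krt7 had -0.74 (FDR 0.0791), S100a6 -0.61 (FDR 0.137), or -1.24 with the UMI correction, Clu -0.41 (FDR 0.7) and Areg -0.17 (FDR 0.72). Clu had -1.02 without dediHep-BO 2 and changed sign without FIPC-SO 1 (0.13) and without dediHep-BO 3 (0.10). Of the list of Yap targets 1 of 11 was called lower, Ptpn14 (-2.81, FDR 0.00105), with a median of 0.01, and Crim1 and Myof had 0.76 (FDR 0.137) and -0.21 (FDR 0.735). Genes of suckling-type enterocytes, which enzymes of urea and arginine synthesis represent among others, had 1 of 8 called lower, Ass1 (-3.80, FDR 0.00142), or 3 without dediHep-BO 3, with a median of -0.28. Cps1 counted 799.6, 669 and 1001 CPM in dediHep-BO and 153, 363 and 163 CPM in FIPC-SO (log2 fold change 1.86, SE 0.32, FDR 0.0029) and was just under the fold threshold, which it passed without FIPC-SO 2 (2.36) and with the UMI correction (2.12).

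Other genes with the smallest p in this direction were of mixed function. Wfdc2, a secreted protein of glandular epithelia, counted 0, 0 and 0.471 CPM in dediHep-BO and 98.3, 36.8 and 84.4 CPM in FIPC-SO, 1 count in all in dediHep-BOs, a ratio of 436 (95% counting interval 77.9 to 17248). Ptk7, a receptor of planar cell polarity, also had 1 count in all, with 0.547, 0 and 0 CPM in dediHep-BO and 43.5, 59.2 and 72.8 CPM in FIPC-SO and a ratio of 355 (95% counting interval 63.4 to 14060.5). Both genes were well above the floor in every FIPC-SO library. The splicing factor Rbm11 had the same total in dediHep-BOs and 44.8, 36.8 and 58.7 CPM in FIPC-SOs (ratio 282, 95% counting interval 50.4 to 11186). FDR values of the 3 genes were 4.71e-05, 2.42e-05 and 2.8e-05. Enah, an actin regulator, counted 3.28, 3.93 and 0.943 CPM in dediHep-BO and 78.7, 56.0 and 69.5 CPM in FIPC-SO (log2 fold change -4.64, SE 0.42, FDR 6.07e-05). Mdfic counted 1.09, 2.46 and 2.36 CPM in dediHep-BO and 41.3, 44.0 and 46.4 CPM in FIPC-SO (log2 fold change -4.42, SE 0.38, FDR 4.33e-05). Neither reached 5 CPM in a dediHep-BO library. Tceal8 counted 7.12, 6.39 and 17.4 CPM in dediHep-BO and 205, 193 and 191 CPM in FIPC-SO (log2 fold change -4.23, SE 0.38, FDR 5.73e-05, -4.87 without dediHep-BO 3). Ildr1, of tricellular junctions, counted 2.74, 1.97 and 0 CPM in dediHep-BO and 101, 85.5 and 132 CPM in FIPC-SO (log2 fold change -6.08, SE 0.56, FDR 6.07e-05, -6.72 without dediHep-BO 1 and -5.49 without dediHep-BO 3). Claudins, which seal the junctions between cells, had 1 of 9 called higher and 2 lower (median -0.58). Cldn6 had no count in dediHep-BOs and 78.7, 49.2 and 37.3 CPM in FIPC-SOs (at least 107-fold lower, FDR 9.2e-05), and Cldn8 had a log2 fold change of -4.26 (FDR 0.000861), or -5.20 without dediHep-BO 2 and -3.67 without dediHep-BO 3. Cldn15, which forms pores for sodium, was higher at 119.9, 111 and 91.9 CPM in dediHep-BO and 17.4, 14.0 and 18.5 CPM in FIPC-SO (log2 fold change 2.69, SE 0.28, FDR 0.000127). Cldn2 and Cldn7 were not called (0.18, FDR 0.604 and -0.58, FDR 0.109).

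Rab25 and Gstm2 were low in dediHep-BOs against each of the other organoid groups. Rab25, a small GTPase of epithelial recycling, counted 68.4, 73.8 and 29.2 CPM in dediHep-BO and 568, 292 and 322 CPM in FIPC-SO (log2 fold change -2.80, SE 0.39, FDR 0.000734), with 382 ± 187 CPM in ISC-BOs (SD, n = 4) and 386 ± 171 CPM in dediHep-SOs (SD, n = 3). In the fit of all 4 groups its log2 fold change was -2.74 against ISC-BOs (FDR 0.00338) and -2.76 against dediHep-SOs (FDR 0.000849). Gstm2, a glutathione transferase, counted 36.1, 44.3 and 63.2 CPM in dediHep-BO and 576, 278 and 189 CPM in FIPC-SO (log2 fold change -2.87, SE 0.41, FDR 0.000936, -2.28 without FIPC-SO 1), with 461 ± 155 CPM in ISC-BOs and 444 ± 180.3 CPM in dediHep-SOs. Its log2 fold change was -3.26 against ISC-BOs (FDR 0.000542) and -3.21 against dediHep-SOs (FDR 0.000123). These comparisons share the dediHep-BO libraries. Trp53i11, among the 6 most abundant lower genes, counted 16.4, 27.5 and 85.3 CPM in dediHep-BO and 385, 231 and 227 CPM in FIPC-SO (log2 fold change -2.71, SE 0.51, FDR 0.00493, -3.69 without dediHep-BO 3). In the other direction Jun, an AP-1 subunit, counted 866, 1130.3 and 761 CPM in dediHep-BO and 178, 208 and 192 CPM in FIPC-SO (log2 fold change 2.25, SE 0.21, FDR 7.08e-05), against 255 and 501 CPM on average in ISC-BOs and dediHep-SOs.

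The transcription factors Irx5 and Zfp503 were among the genes with the smallest p. Irx5, a homeobox factor of the Iroquois family at chromosome 8, 92357625 to 92376286, plus strand, had the smallest p of all. It counted 245, 277 and 214 CPM in dediHep-BO and 5.66, 2.00 and 3.26 CPM in FIPC-SO (log2 fold change 6.06, SE 0.38, FDR 1.88e-05), and with 125 ± 84.2 CPM in dediHep-SOs and 0.124 ± 0.248 CPM in ISC-BOs it was present in both organoids of dediHeps and near 0 in both of intestinal origin. Zfp503, a zinc finger repressor, was the reverse. It counted 0, 0 and 0.471 CPM in dediHep-BO and 106, 166 and 120.2 CPM in FIPC-SO, 1 count in all in dediHep-BOs and a ratio of 783 (95% counting interval 140.2 to 30965) (FDR 1.88e-05), and it was at 54.8 ± 17.2 CPM in ISC-BOs and 0.118 ± 0.204 CPM in dediHep-SOs. Few Hox genes were counted at all. Of 39 in the list 2 could be tested, Hoxb4 was called lower at 0, 0.492 and 0.943 CPM in dediHep-BO and 10.4, 5.20 and 11.95 CPM in FIPC-SO (log2 fold change -4.07, SE 0.72, FDR 0.00313, -4.90 without dediHep-BO 3), and Hoxa3 had -1.78 (FDR 0.0306) and was called lower without dediHep-BO 2 (-2.06). The lower count was 4 without dediHep-BO 3, as more genes could be tested. Their summed level was 5.52 to 12.4 CPM in dediHep-BOs and 29.3 to 79.1 CPM in FIPC-SOs.

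Of the factors that specify gut and liver, most were not called. In that list 4 of 36 were called higher and 1 lower (median 0.33), where 3.48% and 2.53% of all genes were. The lower count was 3 without dediHep-BO 3. Vdr, the vitamin D receptor, counted 529, 939.9 and 1029 CPM in dediHep-BO and 79.6, 49.2 and 35.5 CPM in FIPC-SO (log2 fold change 3.92, SE 0.36, FDR 6.46e-05) and averaged 1015 CPM in ISC-BOs. Foxa2, a pioneer factor of endoderm, counted 95.8, 122 and 98.5 CPM in dediHep-BO and 27.4, 20.4 and 19.2 CPM in FIPC-SO (log2 fold change 2.23, SE 0.28, FDR 0.000452). Nr1i3, the drug sensor CAR, counted 19.2, 18.2 and 17.0 CPM in dediHep-BO and 3.05, 0.799 and 0.724 CPM in FIPC-SO (log2 fold change 3.56, SE 0.52, FDR 0.000988, 4.48 without FIPC-SO 1). Maf, which rises as enterocytes mature, counted 20.3, 31.5 and 71.2 CPM in dediHep-BO and 10.4, 6.396 and 8.33 CPM in FIPC-SO (log2 fold change 2.28, SE 0.47, FDR 0.00747) and was not called without dediHep-BO 3, where the log2 fold change was 1.61. These 4 were higher in every dediHep-BO library than in any FIPC-SO library. Osr2, a factor of embryonic mesenchyme and other tissues, was lower at 0, 3.93 and 0 CPM in dediHep-BO and 43.1, 36.8 and 38.8 CPM in FIPC-SO (log2 fold change -4.84, SE 0.72, FDR 0.00116, -9.51 without dediHep-BO 2). Onecut2 and Sox4 were not called (1.35, FDR 0.00659 and 0.71, FDR 0.0817), nor were Hnf4a (1.02, FDR 0.00828), Gata4 (-1.37, FDR 0.0307), Gata6 (1.29, FDR 0.00434), Cdx1 (0.25, FDR 0.735) or Sox9 (-0.09, FDR 0.854).

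Genes of region within the gut gave no single direction. In the small intestine list 2 of 9 were called higher, Adh6a (5.16, FDR 8.38e-05, 6.24 without FIPC-SO 2) and the bile acid exporter subunit Slc51b (3.64, FDR 0.0101, 3.03 without dediHep-BO 3 and 5.03 without FIPC-SO 1), and 2 lower, Bex4 and Bex1. Bex4 had no count in dediHep-BOs and 18.7, 26.4 and 36.6 CPM in FIPC-SOs (at least 55.4-fold lower, FDR 0.000179). Bex1 counted 8.76, 4.43 and 49.97 CPM in dediHep-BO and 199, 130.3 and 158 CPM in FIPC-SO (log2 fold change -2.94, SE 0.66, FDR 0.0118, -4.64 without dediHep-BO 3), a call that was lost with all 49 libraries in the fit. Of colon genes 2 of 6 were called higher, Muc3 and Ang4, which the small intestine also expresses, and of stomach genes 1 of 4, Irx5, which other organs also express (2 without dediHep-BO 3). Anxa10 and Vsig1, of gastric mucus cells, had -1.08 (FDR 0.298) and -1.33 (FDR 0.189).

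Markers of other cell types were examined for liver, bile duct, mesenchyme, blood and nerve. Of 28 hepatocyte genes 8 had no count in any dediHep-BO or FIPC-SO library and 4 could be tested. The 2 called were Ttr and Trf. Ttr, the thyroxine carrier, counted 429, 250.4 and 81.1 CPM in dediHep-BO and 17.8, 6.80 and 9.42 CPM in FIPC-SO (log2 fold change 4.47, SE 0.59, FDR 0.000578, 3.85 without dediHep-BO 1). Trf, the plasma iron carrier, counted 52.5, 34.4 and 77.8 CPM in dediHep-BO and 9.14, 4.40 and 8.33 CPM in FIPC-SO (log2 fold change 2.90, SE 0.40, FDR 0.000732). Both were higher in every dediHep-BO library, while Alb was at 0 in all libraries of dediHep-BOs and FIPC-SOs. Ttr averaged 79.5 ± 39.1 CPM in ISC-BOs, whereas Trf averaged 2.54 ± 1.43 CPM there and 638 ± 80.1 CPM in dediHep-SOs. Of bile duct genes 2 of 13 were called higher, Tm4sf4 (2.50, FDR 0.000382) and the water channel Aqp1 (3.04, FDR 0.000604, 3.70 without FIPC-SO 1), and 1 lower, the chloride channel Cftr, at 12.6, 12.3 and 27.3 CPM in dediHep-BO and 121, 130.3 and 116 CPM in FIPC-SO (log2 fold change -2.81, SE 0.35, FDR 0.000391), with 141 ± 35.5 CPM in ISC-BOs and 11.6 ± 14.1 CPM in dediHep-SOs.

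Mesenchymal genes differed widely between libraries of the same group. The summed level of the list of 20 genes was 383, 426 and 24.4 CPM in dediHep-BO and 27.9, 14.2 and 751 CPM in FIPC-SO, and 0 of 7 tested members were called in either direction by edgeR or DESeq2, with 1 at an unadjusted p under 0.05. Of all 11547 genes tested, 3662 had an unadjusted p under 0.05. The number of list members called higher was 6 without FIPC-SO 3. Col3a1 counted 154, 103 and 1.89 CPM in dediHep-BO and 6.09, 0.400 and 192 CPM in FIPC-SO (log2 fold change 0.38, SE 1.35, FDR 0.871). Col1a2 counted 94.7, 142 and 0 CPM in dediHep-BO and 1.31, 2.00 and 119 CPM in FIPC-SO (log2 fold change 0.94, SE 1.37, FDR 0.672). The level was thus high in dediHep-BO 1 and 2 and in FIPC-SO 3 and near 0 in the other libraries of both groups. Both collagens had no count in ISC-BOs and dediHep-SOs. Without FIPC-SO 3 their log2 fold changes were 4.71 and 5.48, past both thresholds. Of the blood and endothelial list 1 of 14 genes could be tested, Lyz2, which is given above beside Lyz1, and Ptprc and Pecam1 had 1, 2 and 0 and 0, 0 and 0 counts in dediHep-BO and 0, 0 and 0 and 2, 0 and 0 in FIPC-SO. The one testable gene of the enteric neuron and glia list, Ret, had 1.22 (FDR 0.128), and the glial factor Sox10 had 0, 0 and 0 and 3, 0 and 19 counts. The part of these cells in the results was not tested.

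Lists of proliferation and housekeeping genes held no called member by edgeR or DESeq2. Of all 11547 genes tested, 3662 had an unadjusted p under 0.05 in edgeR's test, and the list counts of such p stand against that share. Of 24 S phase genes 6 had an unadjusted p under 0.05, and of 25 G2 and M phase genes 5, with medians of -0.34 and -0.28. The G2 and M phase sum was 3510 to 4097 CPM in dediHep-BOs and 4142 to 5056 CPM in FIPC-SOs, while the S phase sums overlapped. Mki67 counted 728, 765 and 744 CPM in dediHep-BO and 692, 1021 and 837 CPM in FIPC-SO (log2 fold change -0.19, SE 0.18, FDR 0.511), Top2a had -0.28 (FDR 0.389), Pcna 0.61 (FDR 0.112) and Rrm2 -0.68 (FDR 0.189). Mitochondrial transcripts were higher in sum in every dediHep-BO library, 19340.3, 18846 and 19143 CPM against 14428, 12581 and 13238 CPM, with 13 of 18 genes at an unadjusted p under 0.05 (median 0.58), mt-Rnr2 at 0.34 (FDR 0.152), or 1.00 with the UMI correction, and mt-Nd1 at 0.40 (FDR 0.112). Cytosolic ribosomal proteins had a median of -0.19 with 13 of 85 at an unadjusted p under 0.05, and 60 members were negative and 25 positive. Their sum was lower in every dediHep-BO library, 29058 to 31692 CPM against 31831 to 35887 CPM. Rpl4 and Rpl23 were among the positive members, at 0.26 (FDR 0.29) and 0.34 (FDR 0.156). Cholesterol synthesis genes had a median of 0.20 with 10 of 16 at an unadjusted p under 0.05, with Cyp51 at 0.42 (FDR 0.134). Among keratins, 1 of 6 was called (2 without dediHep-BO 1), Krt20, and Krt8 and Krt18 had 0.41 (FDR 0.333) and 0.06 (FDR 0.88).

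Of mucosal defence genes 2 of 10 were called higher, Pigr and Dmbt1, and 1 lower (median 0.36), with 4 without dediHep-BO 3 for higher. Dmbt1, a secreted scavenger protein, counted 825, 513 and 342 CPM in dediHep-BO and 28.3, 24.4 and 26.1 CPM in FIPC-SO (log2 fold change 4.41, SE 0.34, FDR 2.55e-05), while the collectin Sftpd was lower (-2.74, FDR 0.0192, -3.65 without dediHep-BO 2) and Lypd8 and Nfkbia were not called (0.29, FDR 0.583 and 0.43, FDR 0.237). Ifi47, an interferon-inducible GTPase, counted 73.9, 65.9 and 78.2 CPM in dediHep-BO and had no count in FIPC-SO (at least 183-fold higher, FDR 1.88e-05). Of the interferon and antigen presentation list 2 of 9 were called higher (1 without dediHep-BO 1 and 4 without dediHep-BO 3), Ifi27l2b (2.76, FDR 0.000384) and Ifi27 (3.06, FDR 0.0171, 4.69 without FIPC-SO 3, 3.72 with thinned counts, not called without dediHep-BO 1), with a median of 0.75. The class I genes H2-K1 and H2-D1 had 0.85 (FDR 0.0332) and 0.74 (FDR 0.0843). In bile acid and iron handling 3 of 11 were called higher. The conjugate exporter Abcc2 had 2.42 (FDR 0.00249) and was not called without dediHep-BO 3. Cybrd1, the duodenal ferric reductase, counted 169, 171 and 1.41 CPM in dediHep-BO and 14.8, 10.4 and 30.4 CPM in FIPC-SO (log2 fold change 2.60, SE 0.97, FDR 0.0922), with dediHep-BO 3 below all FIPC-SO libraries, and lost its call under 9 of the alternatives tried. Slc51b was the third. The iron storage subunit Fth1 and the transferrin receptor Tfrc were under the fold threshold in opposite directions (1.33, FDR 0.000898 and -1.19, FDR 0.0056).

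**Figure D2:**
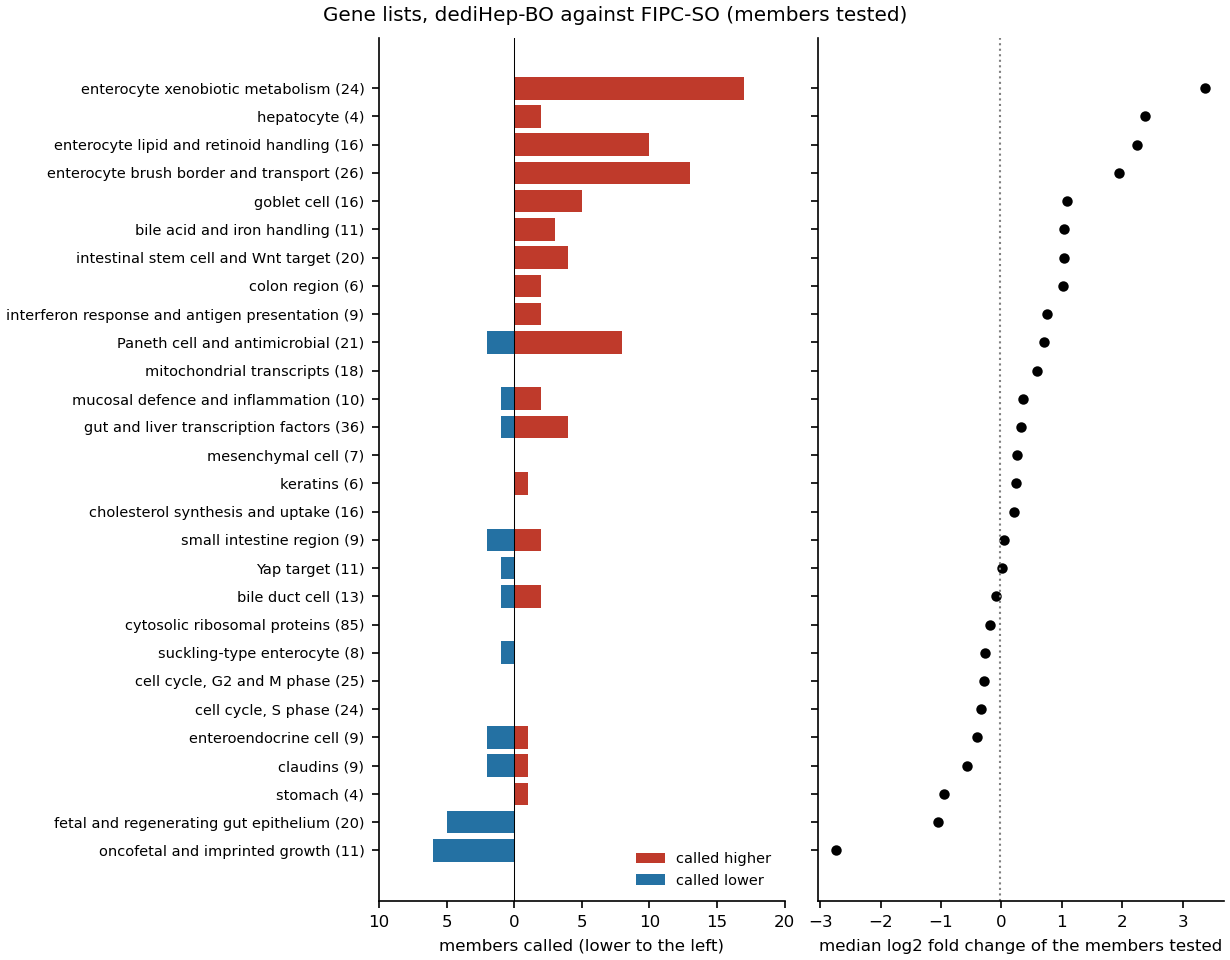
Left, the number of members of each gene list called higher (red, to the right) and lower (blue, to the left) in dediHep-BOs, with the number tested in brackets and lists with under 4 tested members left out. Right, the median log2 fold change of the tested members, with the median of all genes as a dotted line at -0.03. The enterocyte lists stand at the top with medians of 1.94 to 3.37, beside the hepatocyte list with 4 tested members, and the oncofetal list at the bottom with -2.73.

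**Figure D3:**
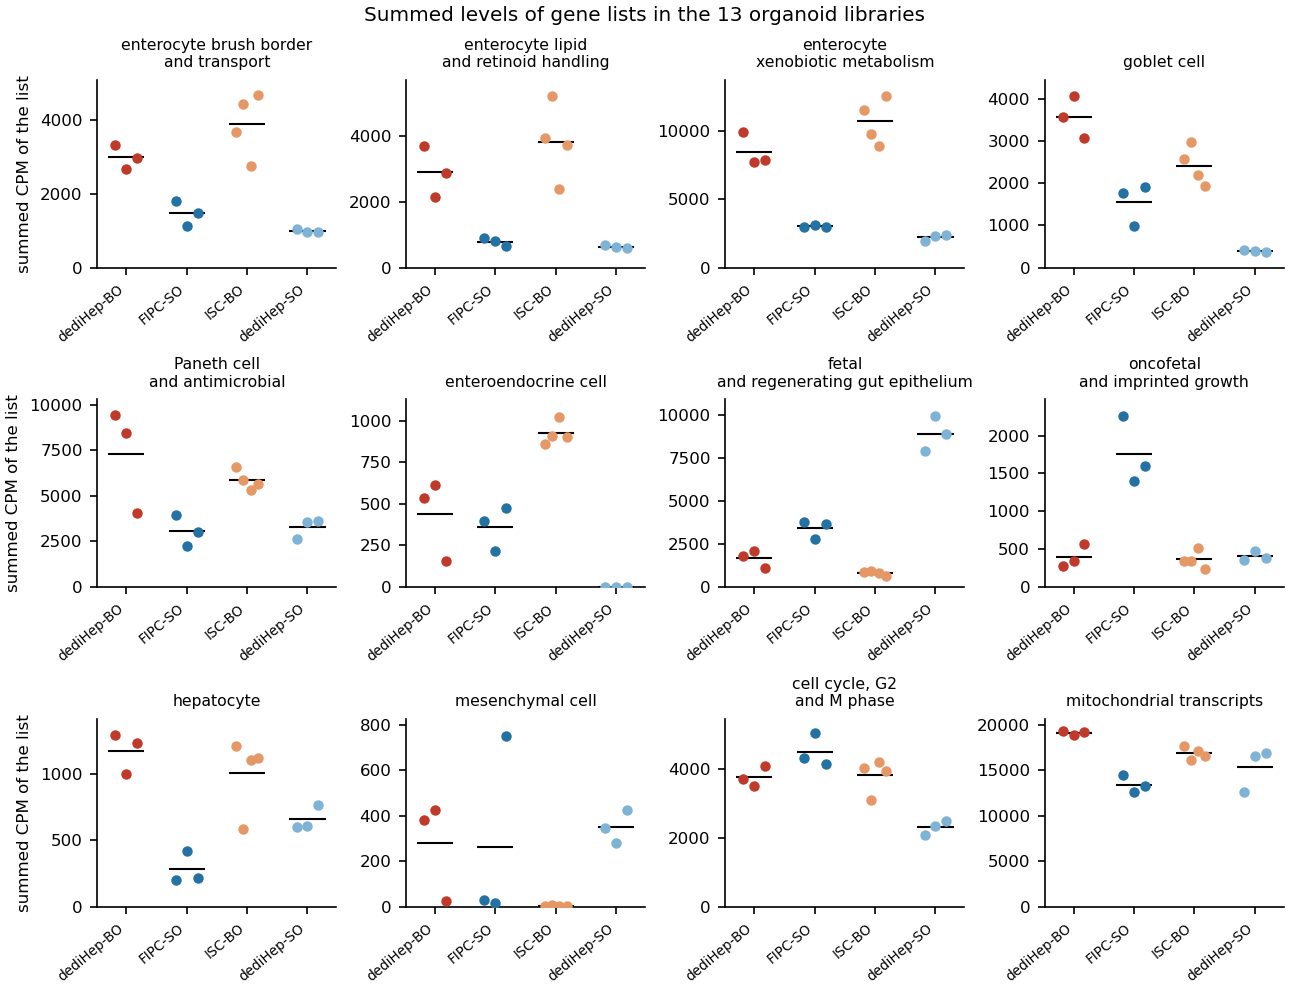
Summed CPM of the library total for 12 gene lists, with 1 point a library and a line at the mean of each group (3 dediHep-BO, 3 FIPC-SO, 4 ISC-BO and 3 dediHep-SO libraries) on linear axes from 0. The enterocyte sums of dediHep-BOs lie above FIPC-SOs, the oncofetal sum lies at 278 to 566 CPM against 1395 to 2261 CPM, and the mesenchymal sum splits both groups.

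A second comparison of a budding with a spherical organoid across sources, ISC-BOs against dediHep-SOs, shares no library with the first and reverses the source. A gene higher in both follows the budding form in these groups, and a gene higher in the first and lower in the second follows the dediHep source, though the Cdx2 virus, age and medium also differ. Of 11545 genes tested in it 1478 were called (12.8%), 725 higher (6.28%) and 753 lower (6.52%) in ISC-BOs. Of the 397 genes called higher in dediHep-BOs, 355 were tested in both comparisons. Among these, 192 (54.1%) were also called higher in ISC-BOs, which 5.42% of all genes were, and 39 (11.0%) were called lower, which 4.61% were. Taken from the other side, the 192 were 32.3% of the genes higher in ISC-BOs. Of the 292 genes called lower in dediHep-BOs, 209 were tested in both comparisons. Among these, 82 (39.2%) were also lower in ISC-BOs, which 4.61% of all genes were, and 42 (20.1%) higher, which 5.42% were. The others had too few counts in ISC-BOs and dediHep-SOs to test, so the shares do not cover them. Across the 10953 genes the log2 fold changes of both comparisons had a Pearson r of 0.285 and a Spearman rho of 0.238, given as a description since genes are not independent.

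Among the named genes of enterocytes and Paneth cells, these were high in both budding organoids. Creb3l3 averaged 347 ± 85.6 CPM in ISC-BOs (SD, n = 4) and 1.10 ± 1.33 CPM in dediHep-SOs (SD, n = 3), with a log2 fold change of 8.25 in the second comparison (FDR 9.4e-06). In the same order Muc3 had 103 ± 18.3 CPM and 0.172 ± 0.298 CPM, and Ces2c 337 ± 109.9 CPM and 2.07 ± 3.13 CPM. Lyz1 had 1544 ± 265 CPM and 1.20 ± 2.08 CPM. The means of FIPC-SOs lay between dediHep-SOs and the budding organoids in these genes. On the other side, Wfdc2 averaged 0.238 ± 0.476 CPM in ISC-BOs and 660.0 ± 334 CPM in dediHep-SOs. Msln had 3.41 ± 3.57 CPM and 830.4 ± 247 CPM, Enah 0.623 ± 0.205 CPM and 182 ± 11.0 CPM, and Grb10 3.05 ± 1.45 CPM and 56.3 ± 54.1 CPM, so these were high in both kinds of sphere and low in both budding organoids. Igf2bp1 had no count in ISC-BOs and 5.52 ± 2.96 CPM in dediHep-SOs.

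A smaller set of genes differed by source. Irx5, Ncald, Hhex, Habp2 and Ifi47 were higher in both organoids of dediHeps than in either of the intestine. Hhex, a homeobox factor of the liver bud, counted 55.3, 41.8 and 20.3 CPM in dediHep-BO and 1.31, 2.40 and 1.81 CPM in FIPC-SO (log2 fold change 4.36, SE 0.49, FDR 0.000198), with 0.617 ± 0.442 CPM in ISC-BOs and 89.1 ± 32.1 CPM in dediHep-SOs. Ncald, a calcium sensor, counted 61.8, 74.3 and 86.3 CPM in dediHep-BO and 2.18, 2.00 and 1.81 CPM in FIPC-SO (log2 fold change 5.18, SE 0.35, FDR 1.88e-05), with 8.80 ± 4.40 CPM and 48.5 ± 34.7 CPM. Zfp503 and Ptk7 were the reverse, and Ptk7 averaged 5.03 ± 3.04 CPM in ISC-BOs and no count in dediHep-SOs. Habp2, a protease that binds hyaluronan, counted 108, 138 and 73.5 CPM in dediHep-BO and 6.96, 7.99 and 6.52 CPM in FIPC-SO (log2 fold change 3.89, SE 0.34, FDR 5.07e-05) and averaged 21.5 ± 11.4 CPM in ISC-BOs and 419 ± 151 CPM in dediHep-SOs, and Ifi47 13.4 ± 6.85 CPM and 113 ± 36.4 CPM.

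**Figure D4:**
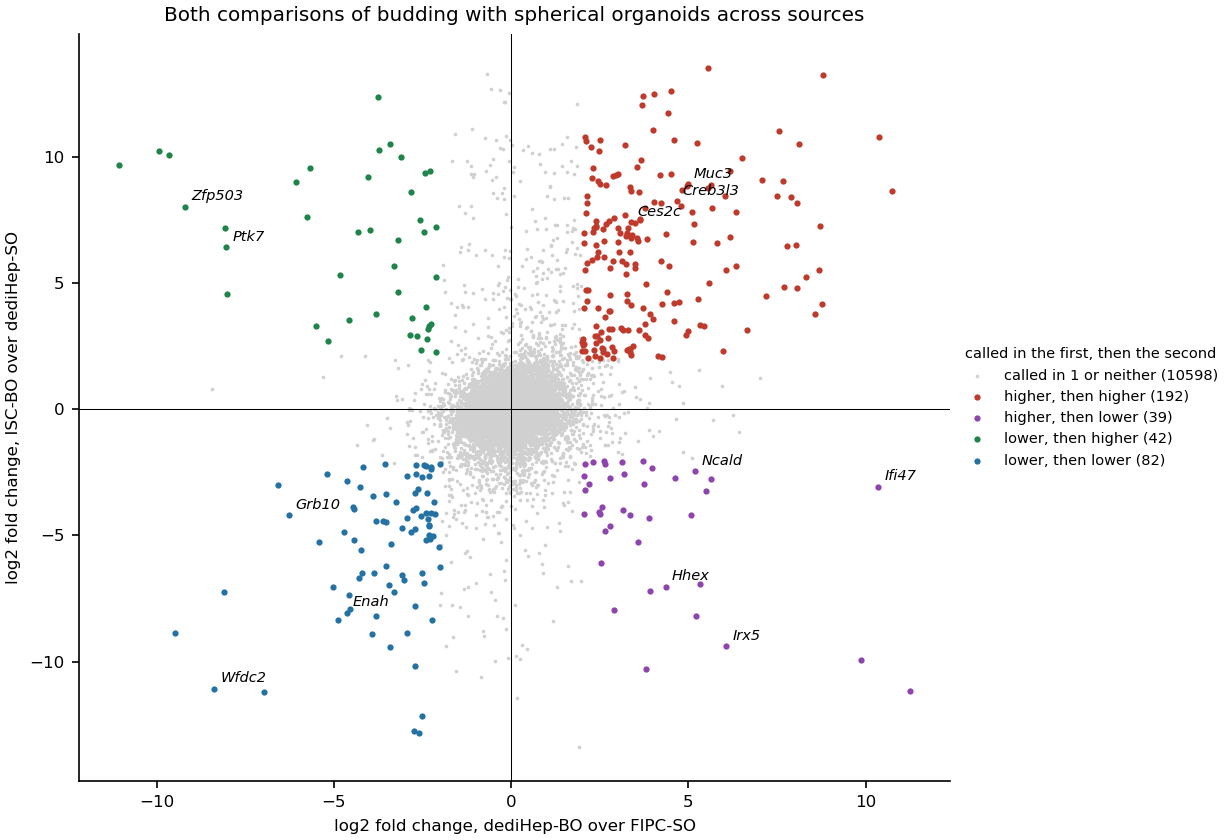
Each point is a gene tested in both comparisons, with the log2 fold change of dediHep-BO over FIPC-SO on the horizontal axis and of ISC-BO over dediHep-SO on the vertical axis, which share no library. Of the genes called in both, 192 are higher in both (red) and 82 lower in both (blue), and 39 (purple) and 42 (green) change sides with the source.

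In 1 fit of the 13 libraries the average effect of form and of source were tested over 12379 genes, with the 6 libraries of the main comparison among them. Spherical organoids were grown with Wnt3a and CHIR99021, and budding organoids were passaged without them. Form thus cannot be told apart from the medium. Within dediHeps it also changed with the Cdx2 virus, and within the intestinal groups with age. Budding against spherical organoids gave 1048 called genes (8.47%), 597 higher (4.82%) and 451 lower (3.64%). The dediHep against the intestinal source gave 740 (5.98%), 352 higher (2.84%) and 388 lower (3.13%). For Muc3 the log2 effect of form was 6.96 (FDR 1.31e-08) and of source -1.98 (FDR 0.00307). For Irx5 it was -1.67 (FDR 0.0343) for form and 7.74 (FDR 9.68e-08) for source. Genes of the main comparison with the smallest p for form were Muc3, Tkfc, Cyp4v3, Slco2b1, Enah, Slc4a11, Wfdc2 and Tubb6, and for source Trf, Irx5, Hhex, Ifitm1, Zfp503, Bdh1 and Cdo1. Among the latter, Ifitm1, an antiviral membrane protein, counted 54.7, 66.4 and 59.9 CPM in dediHep-BO and 7.40, 1.20 and 4.35 CPM in FIPC-SO (log2 fold change 3.80, SE 0.46, FDR 0.00034, 4.40 without FIPC-SO 1). Bdh1, of ketone body metabolism, counted 21.3, 20.2 and 12.7 CPM in dediHep-BO and 121, 94.7 and 79.0 CPM in FIPC-SO (log2 fold change -2.45, SE 0.32, FDR 0.000519). Libraries were also correlated on log2 CPM across all genes above a low limit of counts summed over the 13 libraries, more than were tested. The dediHep-BO libraries had a median Pearson r of 0.932 with ISC-BOs, 0.904 with FIPC-SOs, 0.834 with dediHep-SOs and 0.955 with each other.

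**Figure D5:**
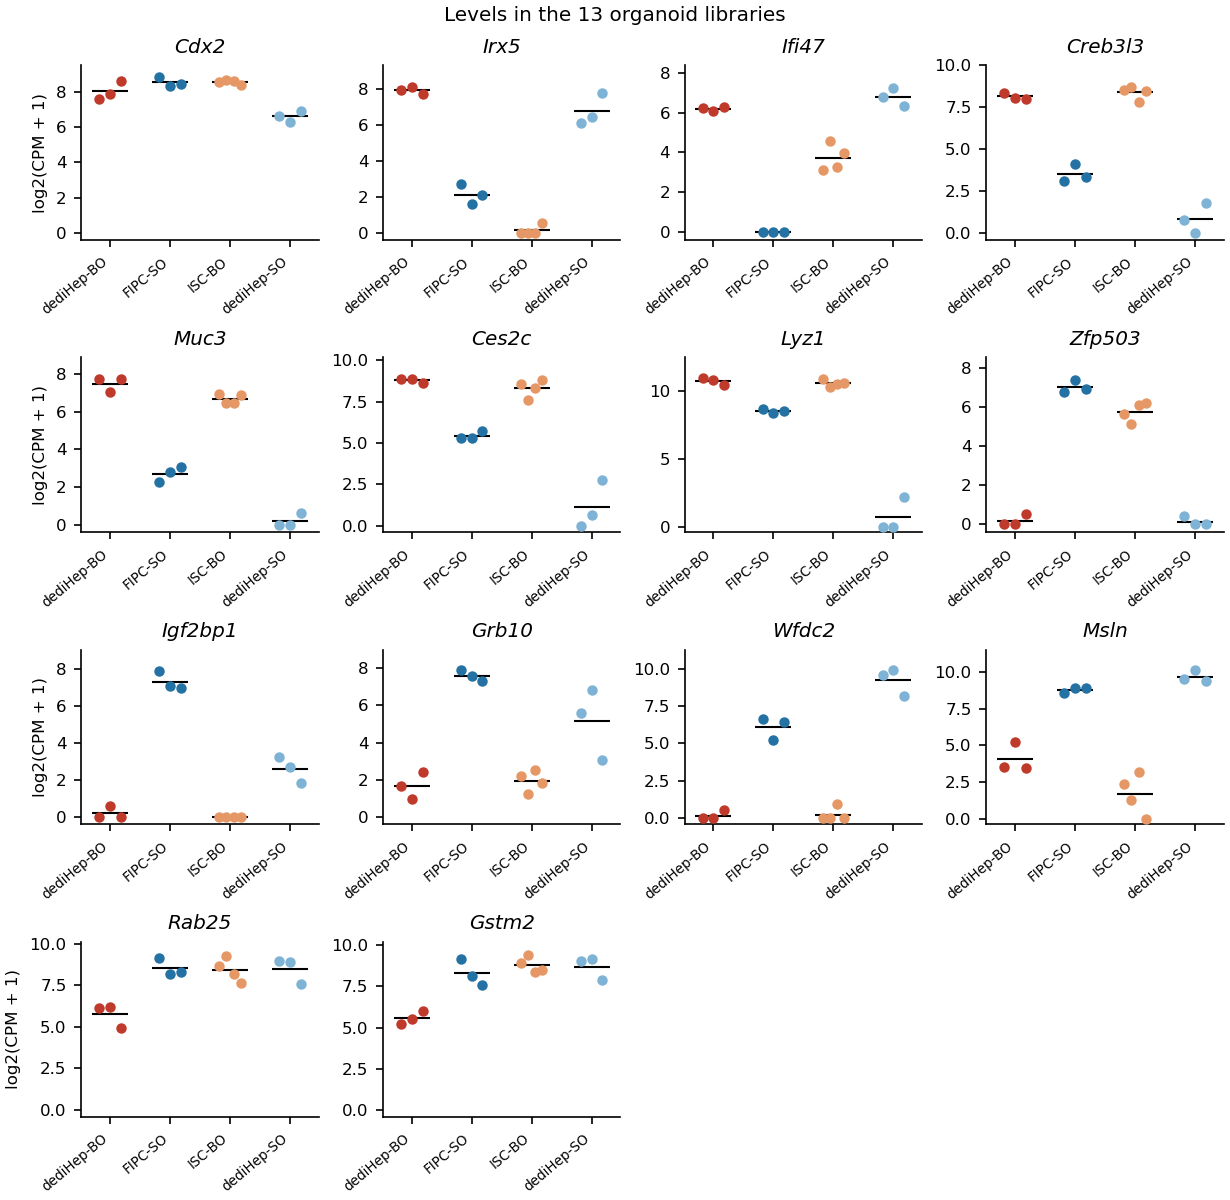
Levels of 14 genes as log2(CPM + 1) in each library, with a line at the group mean. Creb3l3, Muc3, Ces2c and Lyz1 are high in both budding groups, Irx5 and Ifi47 are highest in both dediHep groups, Zfp503 in both intestinal groups, Wfdc2 and Msln in both spherical groups, and Rab25 and Gstm2 are lowest in dediHep-BOs.

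Promoter windows of RefSeq (build GRCm38.p6, 250 bases before to 50 after each start) were searched on both strands for TTTATNG, letters that Cdx factors bind. Of all 27025 genes with a window 12.5% held the letters, and in part of them they overlap TATAAA of the TATA box, so that 8.78% held a match that shares no base with TATAAA. A window was found for 311 of 396 symbols called higher and 196 of 292 called lower, 78.5% and 67.1%, too few for a comparison of shares between the sets, which is void. The 4 windows below belong to the called higher genes named here with the smallest p that hold such a match, and they show the letters beside the start. They are of Slco2b1 at chr7:99706793-99707092 (minus strand), Slc3a1 at chr17:85028097-85028396 (plus strand), Adh6a at chr3:138313036-138313335 (plus strand) and Tm4sf4 at chr3:57425160-57425459 (plus strand), read 5′ to 3′ on the gene's strand, with the match or its reverse complement in capitals.

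Slco2b1: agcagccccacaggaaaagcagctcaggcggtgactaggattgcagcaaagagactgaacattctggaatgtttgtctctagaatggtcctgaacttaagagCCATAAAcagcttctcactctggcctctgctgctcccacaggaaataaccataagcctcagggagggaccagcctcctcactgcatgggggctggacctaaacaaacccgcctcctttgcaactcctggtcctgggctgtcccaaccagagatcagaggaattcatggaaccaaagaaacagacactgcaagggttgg
Slc3a1: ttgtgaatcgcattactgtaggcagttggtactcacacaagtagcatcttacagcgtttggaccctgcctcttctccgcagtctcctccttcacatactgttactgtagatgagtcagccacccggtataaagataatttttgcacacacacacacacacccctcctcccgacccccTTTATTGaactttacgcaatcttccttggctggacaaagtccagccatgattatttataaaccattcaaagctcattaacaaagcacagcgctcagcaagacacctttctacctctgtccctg
Adh6a: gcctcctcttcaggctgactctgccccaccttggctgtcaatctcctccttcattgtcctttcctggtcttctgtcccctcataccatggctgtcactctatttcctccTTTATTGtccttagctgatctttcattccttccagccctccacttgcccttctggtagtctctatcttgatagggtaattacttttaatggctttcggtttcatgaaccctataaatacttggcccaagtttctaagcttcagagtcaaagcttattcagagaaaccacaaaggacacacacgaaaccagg
Tm4sf4: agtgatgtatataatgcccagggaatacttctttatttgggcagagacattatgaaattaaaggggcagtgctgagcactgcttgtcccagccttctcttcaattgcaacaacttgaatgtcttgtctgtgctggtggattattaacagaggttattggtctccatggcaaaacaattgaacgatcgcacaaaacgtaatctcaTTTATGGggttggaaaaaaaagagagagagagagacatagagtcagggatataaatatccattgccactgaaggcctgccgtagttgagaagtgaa

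The matches begin 148, 73, 141 and 46 bases before the start in Slco2b1, Slc3a1, Adh6a and Tm4sf4. A match is a description of letters and not a bound site. Slc3a1 counted 73.3, 43.3 and 49.97 CPM in dediHep-BO and 3.92, 4.80 and 5.07 CPM in FIPC-SO (log2 fold change 3.57, SE 0.34, FDR 8.11e-05). Adh6a, an alcohol dehydrogenase, counted 58.6, 39.3 and 49.97 CPM in dediHep-BO and 0.435, 2.80 and 0.724 CPM in FIPC-SO. Tm4sf4, a membrane protein of liver and gut, counted 245, 192 and 176 CPM in dediHep-BO and 22.2, 39.97 and 45.6 CPM in FIPC-SO. Slco2b1 counted 40.5, 34.4 and 49.5 CPM in dediHep-BO and 0, 0.400 and 1.09 CPM in FIPC-SO, so that all 4 were higher in every dediHep-BO library.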

How the data were processed

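RNA of 49 mouse libraries in 16 conditions was sequenced by CEL-seq2, and 13 organoid libraries were used here. The deposited table holds UMI counts per gene, which the authors made with the celseq2 pipeline from NovaSeq reads. The submitters' processing notes name bcl2fastq 2.20, Bowtie2 2.3.1, HTSeq 0.6.0 and build GRCm38. A UMI of 6 bases has 4096 sequences, so counts end at 4095 in a library and high genes are understated. Up to 80 genes per library of the main comparison passed the midpoint of this range. Symbols came from GENCODE M21 (45143 of 46078 identifiers), and genes with near copies (Ces2c, Lyz1 and Lyz2, Defa, Reg3, Cyp3a, Cyp2c, Ugt2b, H2) may share counts.

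Counts were tested in R 4.3.3 with edgeR 4.0.16 (TMM factors, filterByExpr with a minimum count of 10 and total of 15, glmQLFit and glmQLFTest, Benjamini-Hochberg adjustment over all genes tested). Each 2-group comparison was fitted on its own libraries, and form and source in 1 fit of 4 groups. Alternatives used DESeq2 1.42.0, other scalings, filters, thresholds and sample sets, a replicate block, thinned counts, a correction for UMI collisions, and each library left out. The code was tested on simulated data. Sums over lists and sex-linked counts use library totals without TMM factors. Folds against a group with no count were computed against 3 counts over the group, and genes with 1 to 3 counts are given as a ratio with an exact 95% interval. Floors and these intervals cover counting error only.

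Genes were named by rule: Cdx2; per direction, the 12 called genes of lowest p and the 6 of highest level; up to 4 called genes in each direction and up to 2 abundant genes that were not called for each list; 7 defining markers; and, for form and for source, the 4 genes of lowest p per direction that were also called in the main comparison. Symbols starting with Gm and a digit or ending in Rik were passed over. A few genes that this rule names are not reported here. H19, Igf2bp3, Reg3b, Hnf4a, Gata6, Cdx1, Ascl2, Smoc2, Axin2, Clu, Areg, Defa17 and Defa22 were named after their values were seen. The members and lists were chosen with earlier results of these data known. The other libraries of the series entered 1 alternative fit.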

Additional observations from a re-analysis of the deposited data

Results flagged for a closer look

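Of 27 genes whose levels were screened over the 4 ISC-BO libraries, 2 had 1 library far from the others. Irx5 was at 0.497 CPM in ISC-BO 4 and at 0 in the other 3 libraries. Wfdc2 was at 0.952 CPM in ISC-BO 3 and at 0 in the other 3. These values stand for 1 and 2 counts, under the 3 counts taken as the floor. Where the other libraries hold 0, any count gives such a gap, so the screen cannot tell these values from stray counts.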

How the results depend on the processing

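The count of called genes in the main comparison was 664 to 975 under thinned counts, other scalings, DESeq2, a correction for UMI collisions, an FDR under 0.05 and larger sets of libraries. It moved to 1373 with no low-count filter, to 1298 with at least 0.5 CPM in 1 library and to 2087 with an absolute log2 fold change over 1. These settings admit more genes by construction. For ISC-BOs against dediHep-SOs they gave 2598, 2531 and 2821, for form 1713, 1664 and 2277, and for source 1192 with no filter and 1622 with the lower fold threshold. Without 1 library the counts were 709 to 978, 1364 to 1911, 1011 to 1248 and 720 to 874 in that order, the highest of the last 3 without dediHep-SO 3. With library totals in place of TMM the median log2 fold change was -0.13 and 53.6% of calls were higher, against 57.9%.

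Of 98 called genes named by the rule and given here, 90 kept their call under every alternative run, none reversed, and 8 lost it under at least 1: Ly6a, Xist and Bex1 with all 49 libraries, Nupr1, Maf and Abcc2 without dediHep-BO 3, Ifi27 without dediHep-BO 1, and Cybrd1 under 9. In 38 of the 98 the fold moved by over 1.5 times without 1 library. Of 58 genes not called, 8 changed sign. Without 1 library the log2 fold changes ran from -1.11 to 2.84 for Vim, -0.36 to 4.71 for Col3a1, -0.11 to 0.075 for Slc12a2, -0.52 to 0.070 for Myof, -0.27 to 0.27 for Sox9, -0.028 to 0.29 for Cldn2 and -0.12 to 0.18 for Krt18. Krt18 had -0.030 with library totals and Rpl4 -0.20 with the UMI correction. The causes were not tested.

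The labels do not say whether the replicate numbers pair the libraries. Between dediHep-BOs and FIPC-SOs, deviations of libraries with the same number correlated at -0.225, -0.0745 and -0.215. Between ISC-BOs and dediHep-SOs they correlated at -0.0217, 0.200 and 0.173. Deviations from the mean of so few libraries cannot settle whether they were paired. With the number as a replicate block 689, 1451, 1011 and 726 genes were called in the 4 comparisons, Vim had 0.43, and Cybrd1 lost its call. Between dediHep-BOs and FIPC-SOs no library correlated best with its own number, and between ISC-BOs and dediHep-SOs some did. Groups of 3 or 4 libraries limit the precision of each value.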

Other observations

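In 3 further gene groups some members were called lower in dediHep-BOs than in FIPC-SOs. They were put together after the values were seen, so their counts are descriptions without a test of the list, and 2.53% of all genes were called lower. Of 22 genes of amino acid synthesis and transport and of the stress response that goes with them, 10 were called lower and 1 higher (median log2 fold change -1.92). Slc7a11, the cystine carrier, counted 3.83, 2.46 and 12.7 CPM in dediHep-BO and 80.9, 93.1 and 109 CPM in FIPC-SO (log2 fold change -3.87, SE 0.48, FDR 0.000403), with 19.3 CPM on average in ISC-BOs and 43.3 CPM in dediHep-SOs, and the log2 fold change was -4.91 without dediHep-BO 3. Mthfd2, an enzyme of mitochondrial folate metabolism, counted 32.3, 25.1 and 42.0 CPM in dediHep-BO and 199.7, 151 and 157 CPM in FIPC-SO (log2 fold change -2.36, SE 0.29, FDR 0.000357), with 95.6 CPM on average in ISC-BOs and 24.3 CPM in dediHep-SOs. Every FIPC-SO library was above every dediHep-BO library for both. Slc7a5, Slc7a3, Psph, Phgdh, Chac1, Ddit3, Pycr1 and Stc2 were called lower as well, of which Psph, Phgdh, Ddit3 and Pycr1 fell under the fold threshold without 1 library. Shmt2 and Atf5 were just under the fold threshold at -1.88 (FDR 0.000898) and -1.95 (FDR 0.000322) and passed it without FIPC-SO 3 or dediHep-BO 3, Psat1 and Atf4 had -0.49 (FDR 0.142) and -0.46 (FDR 0.261), and Cbs, which makes cystathionine, was higher at 2.24 (FDR 0.00827) and not called without dediHep-BO 3 (1.94).

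Of 14 tested targets of p53, 3 were called lower, 0 higher and 12 had a negative fold change (median -1.32). Zmat3, an RNA-binding protein, counted 32.8, 34.9 and 33.0 CPM in dediHep-BO and 197, 134 and 219 CPM in FIPC-SO (log2 fold change -2.45, SE 0.28, FDR 0.000214), with 58.1 CPM on average in ISC-BOs and 270.2 CPM in dediHep-SOs, so both spherical groups were above both budding groups. Eda2r and Phlda3 were the other called genes, while Cdkn1a, a cell cycle inhibitor, and Mdm2 had -0.54 (FDR 0.159) and -1.27 (FDR 0.00474).

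Of 11 tested genes of the basement membrane, 4 were called lower and 0 higher (median -1.66). Col4a1, a chain of collagen IV, counted 6.02, 10.8 and 1.41 CPM in dediHep-BO and 51.8, 37.2 and 51.1 CPM in FIPC-SO (log2 fold change -2.94, SE 0.50, FDR 0.00248), with 0.115 CPM on average in ISC-BOs and 85.0 CPM in dediHep-SOs, and the log2 fold change was -3.67 without dediHep-BO 2. Npnt, nephronectin, counted 9.30, 7.87 and 4.24 CPM in dediHep-BO and 38.3, 69.6 and 55.4 CPM in FIPC-SO (log2 fold change -2.93, SE 0.37, FDR 0.000442), with 7.77 CPM on average in ISC-BOs and 152 CPM in dediHep-SOs. Col4a2 and the laminin chain Lama5 were the other called genes. The laminin chains Lamb3 and Lamc1 had 0.26 (FDR 0.545) and -0.58 (FDR 0.257). The collagens of mesenchymal cells did not follow this order, since they were high in dediHep-BO 1 and 2 and in FIPC-SO 3.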
